A study of Mus musculus with 20 samples.

Results

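Hilpda, Plin2, Angptl4, Acot1, Acot2, Pex11a, Slc22a5, Retsat and Ech1 are genes of lipid droplets, lipid supply and fatty acid oxidation, most of them known as targets of the peroxisome proliferator-activated receptors (PPARs). They were picked by gene symbol, and all 9 were found in both deposited tables, among 26099 genes in the acute table and 26486 in the survival table. None of them encodes an enzyme of ketone body synthesis, so the ketogenic genes are described below from a list of their own. RNA came from 20 spleens of mice that had been sub-lethally irradiated and transplanted with a mouse T-cell acute lymphoblastic leukemia in which Acly can be deleted by tamoxifen. Acly encodes ATP-citrate lyase, which makes cytosolic acetyl-CoA from citrate. The acute arm used mice in which leukemia was already overt: they received tamoxifen (KO, 4 libraries, 3 mg per mouse) or its corn oil vehicle (WT, 6 libraries) and were sampled after 72 h. The survival arm gave tamoxifen (KO, 5 libraries, 3 mg per mouse) or corn oil (WT, 5 libraries) 48 h after transplantation and sampled the mice when they reached the humane endpoint. WT and KO mice carried the same conditional leukemia, so WT means an intact allele without tamoxifen, and the drug and the deletion cannot be told apart. The sources used here do not give the strain, sex and age of the mice, the Cre driver or the number of independent leukemias, so p-values measure the spread between libraries. No sort of leukemic cells is named, and each library holds the RNA of a whole spleen suspension after red cell lysis.

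PPARs are nuclear receptors that bind fatty acids and their derivatives and, paired with a retinoid X receptor, switch on genes for the uptake, storage and oxidation of fat. In liver, fasting engages PPAR-alpha to raise fatty acid oxidation and ketone body synthesis. Lipid droplets are stores of neutral lipid with a coat of proteins such as PLIN2, and the lipase ATGL (gene Pnpla2) releases fatty acids from them. HILPDA binds and inhibits that lipase. Hilpda, Plin2 and Angptl4 are also induced in low oxygen through hypoxia-inducible factors (HIFs), which bind DNA at a short core of which ACGTG is the usual form and GCGTG the variant.

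The promoters of Hilpda and Plin2 are shown because these were the only members whose fold changes differed between the arms beyond the test's threshold, as given further on. A count of 2 in 9 is near the share of all tested genes that passed, 20.2%. The windows run from 250 bases before to 50 bases after the start of the gene, 5′ to 3′ on the gene's strand, from RefSeq on GRCm38.p6. A RefSeq window was found for 8 of the 9 genes, and Hilpda had 2, of which the downstream one is shown. It lies at chr6:29272376-29272675 on the plus strand and the Plin2 window at chr4:86670010-86670309 on the minus strand. Capitals mark these HIF core letters in either form and the letters AGGTCA of a nuclear receptor half-site, each read on both strands.
Hilpda: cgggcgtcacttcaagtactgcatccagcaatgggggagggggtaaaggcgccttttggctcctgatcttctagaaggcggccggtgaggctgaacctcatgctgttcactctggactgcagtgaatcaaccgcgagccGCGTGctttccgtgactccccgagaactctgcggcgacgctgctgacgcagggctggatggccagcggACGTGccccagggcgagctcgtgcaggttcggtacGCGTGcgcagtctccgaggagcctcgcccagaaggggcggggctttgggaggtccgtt
Plin2: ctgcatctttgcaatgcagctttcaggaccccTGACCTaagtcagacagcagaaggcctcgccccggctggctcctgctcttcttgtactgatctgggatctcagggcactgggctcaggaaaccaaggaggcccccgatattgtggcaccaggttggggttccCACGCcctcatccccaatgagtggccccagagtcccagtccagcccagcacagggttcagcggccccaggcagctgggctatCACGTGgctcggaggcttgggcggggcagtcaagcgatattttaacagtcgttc
The Hilpda window holds the usual HIF core once and the variant at 2 places. The Plin2 window holds the usual core at 2 places, on opposite strands and overlapping each other, the variant at 1 place and the nuclear receptor half-site at 1 place. Either form of the HIF core occurs in 43.8% of 32851 RefSeq windows of the same length, and the half-site in 16.3% of them. The variant HIF core also occurs in the windows of Slc22a5 (2 matches) and Retsat (1 match), whereas those of Acot1, Acot2, Pex11a and Ech1 hold none of these letters. The direct repeat of that half-site with 1 base between the copies (DR1), the arrangement that PPARs are known to bind, is in none of the members' windows and in 0.0396% of all windows. A match is a run of letters and not a measured binding site.

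The values are DESeq-normalized counts, which are not corrected for transcript length, so levels are compared within a gene and never between genes. Normalized totals ran between 19432235 and 21623571 per library, with a separate scaling of each table. Acly measured 5226, 6228, 6402 and 4823 in acute KO libraries, against 7406 to 8280 with a median of 7633 in acute WT libraries, so the KO mean was 73.3% of the WT mean. Survival KO libraries held 4017, 2174, 3523, 3025 and 2718 and survival WT libraries 7922, 7758, 7396, 7544 and 8825, so KO averaged 39.2% of the WT mean. Acly passed the test in both arms without overlap of the groups (log2 fold change -0.46 ± 0.0747 SE, limma adjusted p = 0.000866, acute; -1.38 ± 0.131 SE, adjusted p = 0.0016, survival). Under the alternative settings listed at the end, the acute value ran from -0.82 to -0.08 and passed in 16 of 19. The survival value ran from -2.27 to -1.26 and passed in all 18.

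Cell makeup differed between the acute groups. All 15 neutrophil markers were higher in acute KO spleens, with a summed level of 188100 to 635800 in KO against 12750 to 51800 in WT libraries, and 16 of 17 monocyte and macrophage markers were higher (24120 to 69730 in KO against 5886 to 9088 in WT). T-cell markers summed to 164100 to 220000 in acute KO and 249200 to 256700 in acute WT libraries, with 14 of 16 lower, and all 8 B-cell markers were higher in KO. At the endpoint, in the survival arm, none of the 15 neutrophil or 17 macrophage markers passed limma's test (0 and 7 at an unadjusted p under 0.05). Those 7 macrophage markers were all higher in KO. The neutrophil sums were 2812 to 32240 in KO and 5448 to 27660 in WT libraries. A mean log2 score over these 32 myeloid markers separated the acute groups completely, at 0.87 to 2.17 in KO and -1.45 to -0.45 in WT libraries, and ran higher in KO libraries 2 and 3 than in 1 and 4. In bulk RNA, fewer cells of a type and less RNA per cell cannot be told apart, and this holds for every result below. Markers of adipocytes, the cells best known for large lipid droplets, were low, and several were near the floor. Adipoq, Plin1, Cidec and Retn never reached a normalized count of 10, while Fabp4 lay above 10 in every library and Cfd and Car3 in some. The adipocyte markers tested, 3 in the acute and 2 in the survival arm, gave 0 calls by limma (0 at an unadjusted p under 0.05).

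Of the 9 genes, Hilpda, Angptl4 and Acot2 fell in acute KO spleens and none rose by limma's adjusted p, while 31.4% of all 16363 tested genes passed, 16.7% as higher and 14.7% as lower. The median log2 fold change of the 9 was -0.21, beside -0.02 over all tested genes. A count of 3 in 9 is thus near the share of the whole table in either direction. All 3 were falls, beside 14.7% of all genes called lower, and whether 9 genes lean to 1 side was not tested. Rescaling to the T-cell receptor constant genes Trbc1 and Trbc2, a stand-in for the T-lineage share chosen after the data were seen, gave 7414 higher and 90 lower calls over all genes, beside the 2731 and 2409 of the deposited scale, and quantile normalization gave 2318 higher and 4145 lower. The 9 genes then counted 3 higher and 1 lower (Trbc1 and Trbc2) or 0 higher and 5 lower (quantile). By contrast 0 of the 9 passed limma's adjusted test in the survival arm, where 0.0124% of 16136 genes did (2 genes, Acly among them). Hilpda, Plin2 and Acot1 had an unadjusted p under 0.05 there, each lower in KO. The median of the 9 in the survival arm was -0.09, beside 0.01 over all tested genes.

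**Figure D1:**
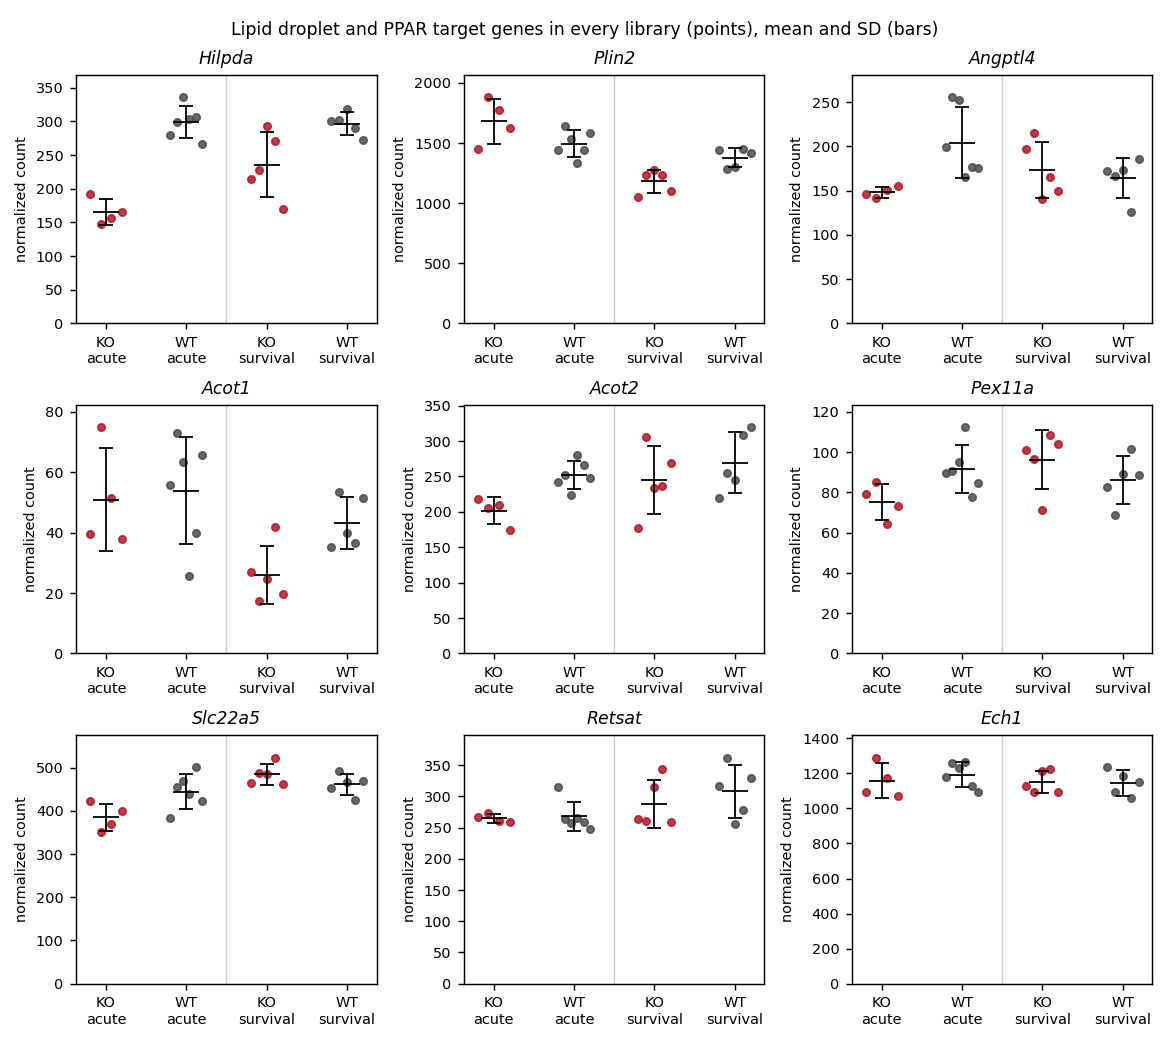
Normalized counts (vertical axes) of the 9 genes in every library, with KO left of WT in each arm; points are libraries, the long bar is the mean and the whiskers are the SD. Hilpda in acute KO libraries sits at 147 to 193, under all WT libraries, while Plin2 is under all WT libraries in survival KO at 1050 to 1276.

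Hilpda, whose protein blocks the droplet lipase ATGL, showed the largest fall among the 9 genes in the acute arm. It measured 193, 147, 157 and 166 in acute KO libraries, against 267 to 336 with a median of 301.5 in acute WT libraries. All 4 KO libraries lay under all 6 WT libraries, a separation in that direction seen in 9.94% of tested genes. The means were 165.5 ± 19.7 in KO and 298.7 ± 23.8 in WT (SD, n = 4 and 6), giving a log2 fold change of -0.85 ± 0.0998 SE with a limma adjusted p of 9.62e-05. At the endpoint Hilpda measured 215, 228, 293, 271 and 170.2 in survival KO libraries, against 301, 302, 319, 290.5 and 273 in survival WT libraries. All KO libraries but library 3 lay under every WT library, library 4 by a narrow gap, so the groups overlapped through library 3 alone. The survival difference of -0.36 ± 0.133 SE, with means of 235.4 ± 48.3 in KO and 297 ± 16.9 in WT (SD, n = 5 each), did not pass (limma adjusted p = 0.431).

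Within the acute KO group, Hilpda was lowest in the libraries with the highest myeloid score, in the order 2, 3, 4 and 1. Its acute difference kept its direction and passed without libraries 2 and 3 (-0.73 ± 0.112 SE, limma adjusted p = 0.00175) and when each library was rescaled to Trbc1 and Trbc2 (-0.48, adjusted p = 0.00343). With the myeloid score as a covariate it was -0.44 ± 0.304 SE and did not pass (adjusted p = 0.866). In that fit 0 of 16363 genes passed limma's adjusted test (1055 at an unadjusted p under 0.05), and score and genotype do not overlap in the acute arm, so their parts cannot be told apart.

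Plin2, which encodes a widely expressed droplet coat protein, had KO to WT differences of opposite sign in the 2 arms. It measured 1450, 1882, 1775 and 1625 in acute KO libraries, against 1332 to 1644 with a median of 1488 in acute WT libraries. KO libraries 2 and 3 lay above all WT libraries, library 4 just under the highest of them and library 1 among them. The acute means were 1683 ± 188 in KO and 1496 ± 114 in WT (SD, n = 4 and 6), with a log2 fold change of 0.17 ± 0.0789 SE that did not pass (limma adjusted p = 0.133). Plin2 in the survival arm measured 1050, 1236, 1276, 1238 and 1103 in KO libraries, against 1439, 1285, 1298, 1451 and 1421 in WT libraries. Every KO library lay under every WT library, by a narrow gap between KO library 3 and WT library 2, while 0.793% of tested genes separated in that direction. The survival means were 1181 ± 98.5 in KO and 1379 ± 80.6 in WT (SD, n = 5 each), a log2 fold change of -0.23 ± 0.0698 SE, and the limma adjusted p over all genes was 0.324.

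Plin2 in acute KO libraries ran in the same order as the myeloid score, from library 1 through 4 and 3 to 2. Left without library 1, the acute difference was 0.24 and passed (limma adjusted p = 0.0299), and rescaled to Trbc1 and Trbc2 it was 0.54 (adjusted p = 0.00814). With the myeloid score as a covariate it was -0.52 (adjusted p = 0.617). Among survival libraries the myeloid scores of KO (-0.89 to 0.75) and WT (-0.49 to 0.39) libraries overlapped. The marker sets pooled in that score leaned apart there. The median log2 fold change was -0.99 for neutrophil markers (4 of 15 positive) and 0.31 for monocyte and macrophage markers (13 of 17 positive). B-cell markers summed to 982.3 to 1755 in survival KO and 1080 to 2547 in survival WT libraries; 0 of 8 passed limma's adjusted test (2 at an unadjusted p under 0.05) and 6 had negative fold changes, Cd79b being lower in every KO than in any WT library (-0.69, limma adjusted p = 0.241). The part of other cell types in the Plin2 and Hilpda levels was not tested further.

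**Figure D2:**
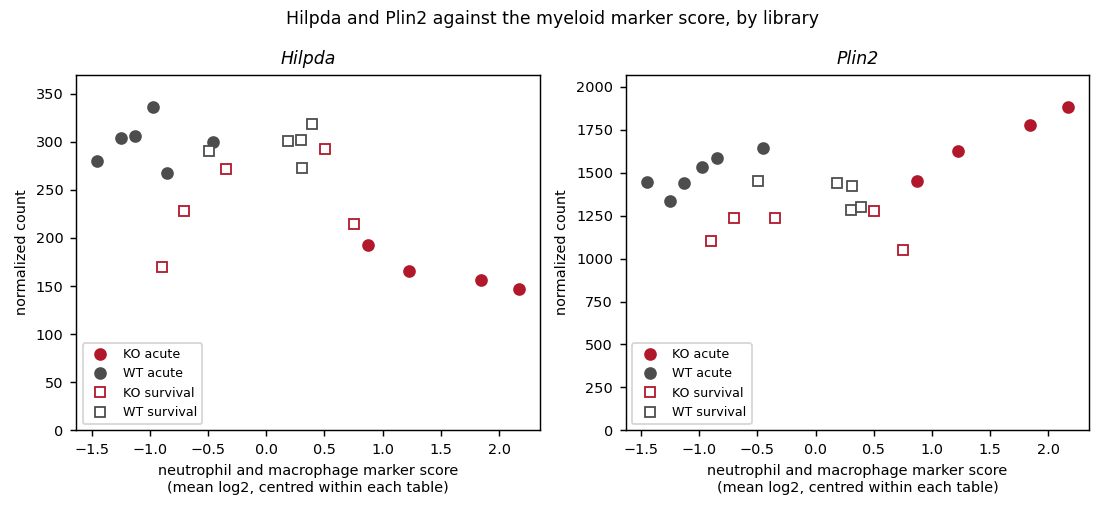
Normalized counts of Hilpda and Plin2 (vertical axes) against the myeloid marker score (horizontal axes, mean log2 of 32 neutrophil and macrophage markers, centred within each table); each point is a library, filled for the acute arm and open for the survival arm. In the 4 acute KO libraries Hilpda lies between 193 and 147 and Plin2 between 1450 and 1882 as the score goes from 0.87 to 2.17.

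Angptl4 encodes a secreted inhibitor of lipoprotein lipase, the enzyme that frees fatty acids from circulating triglyceride. It measured 146, 141, 151 and 155 in acute KO libraries, against 165 to 256 with a median of 188.3 in acute WT libraries. The KO libraries were tightly grouped under all WT libraries, and the WT group was spread, with libraries 2 and 3 at 256 and 252. The means were 148.1 ± 5.99 in KO and 204.1 ± 40.2 in WT (SD, n = 4 and 6), a log2 fold change of -0.44 ± 0.140 SE with a limma adjusted p of 0.0319. This call was lost without KO library 1, 2 or 3, or without WT library 2 or 3 (adjusted p 0.0553 to 0.0779), and the difference was -0.06 when libraries were rescaled to Trbc1 and Trbc2 (adjusted p = 0.765).

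Angptl4 in the survival arm measured 196, 215, 140.1, 165 and 149 in KO libraries, against 172, 166, 173, 126 and 186 in WT libraries. KO libraries 1 and 2 were the highest of the arm and the rest lay among the WT libraries. The fold change there was 0.07 with a 95% interval of -0.25 to 0.39 (limma adjusted p = 0.917).

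Acot1 and Acot2 encode acyl-CoA thioesterases, cytosolic and mitochondrial, which split fatty acyl-CoA into free fatty acid and CoA. Their sequences are alike: of the 31-base words in their GENCODE M21 (GRCm38) transcripts, 16.7% of those of Acot1 also occur in Acot2 and 29.9% of those of Acot2 in Acot1. Words shared with any other gene make up 22.7% for Acot1 and 37.3% for Acot2. Reads that fall in shared stretches could be credited to another gene, so both counts are uncertain, by an amount that these shares do not measure.

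Acot2 measured 218, 205, 210.1 and 174 in acute KO libraries, against 224 to 281 with a median of 249.4 in acute WT libraries. The groups did not overlap, though KO library 1 and WT library 3 nearly met. With means of 201.7 ± 19.3 in KO and 251.9 ± 19.6 in WT (SD, n = 4 and 6), the log2 fold change was -0.32 ± 0.0961 SE (limma adjusted p = 0.024). It did not pass without KO library 4 (adjusted p = 0.063), WT library 4 (adjusted p = 0.0525) or WT library 5 (adjusted p = 0.0507), and it was 0.05 when rescaled to Trbc1 and Trbc2. Survival KO libraries held 177, 306, 234, 237 and 269 and survival WT libraries 220.2, 255, 246, 308 and 319, which overlapped widely (-0.15, 95% interval -0.47 to 0.17, limma adjusted p = 0.799).

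For Acot1 the larger difference was in the survival arm. In the acute arm it measured 39.6, 74.8, 51.3 and 37.9 in KO libraries, against 25.6 to 72.9 with a median of 59.6 in WT libraries, and the groups overlapped entirely (-0.05, 95% interval -0.72 to 0.61, limma adjusted p = 0.917). Survival values of Acot1 were 27.0, 17.3, 24.5, 41.8 and 19.6 in KO libraries, against 35.1, 53.5, 39.8, 36.6 and 51.3 in WT libraries. All survival KO libraries except library 4 lay under every WT library. The survival means were 26.0 ± 9.59 in KO and 43.3 ± 8.55 in WT (SD, n = 5 each), 60.2% of the WT mean and a log2 fold change of -0.76 ± 0.250 SE, which did not pass over all genes (limma adjusted p = 0.354). The acute interval of Acot1 was the widest of the 9 genes.

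Slc22a5 encodes the carnitine transporter OCTN2, which brings in the carrier that long-chain fatty acids need to enter mitochondria. It measured 422, 351, 368 and 399 in acute KO libraries, against 384 to 500.3 with a median of 446.3 in acute WT libraries. KO libraries 2 and 3 lay under all WT libraries and the others within their range. The difference of -0.21 ± 0.0861 SE did not pass (limma adjusted p = 0.0908). The survival KO libraries held 462 to 523 and the survival WT libraries 426 to 493, with a log2 fold change of 0.07 (95% interval -0.08 to 0.22, limma adjusted p = 0.7996). Of the 31-base words of its transcripts, 35.8% also occur in Slc22a21, so its reads can be divided between these genes.

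Pex11a encodes a membrane protein of peroxisome division that PPAR-alpha agonists induce in rodent liver. It measured 79.1, 84.9, 64.2 and 73.3 in acute KO libraries, against 77.7 to 112 with a median of 90.2 in acute WT libraries. The KO libraries lay at the low end of the WT range or under it, and the difference of -0.28 ± 0.143 SE did not pass (limma adjusted p = 0.166). Survival values of Pex11a were 71.5 to 109 in KO and 68.8 to 102 in WT libraries, with a log2 fold change of 0.15 (95% interval -0.18 to 0.49, limma adjusted p = 0.7995).

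Ech1 encodes a dienoyl-CoA isomerase of mitochondria and peroxisomes that helps oxidize unsaturated fatty acids. It had the smallest SE of the 9 genes in both arms (0.0657 acute and 0.0633 survival), with 1091, 1290, 1176 and 1072 in acute KO libraries against 1095 to 1262 with a median of 1204 in acute WT libraries. Survival KO libraries ran from 1091 to 1223 and survival WT libraries from 1058 to 1236. The groups overlapped in both arms, with intervals of the log2 fold change of -0.19 to 0.10 in the acute and -0.13 to 0.14 in the survival arm (limma adjusted p = 0.656 and 0.985). These unadjusted intervals reached at most 0.19 in either direction on the deposited scale. Alternative settings gave values from -0.39 to 0.33 in the acute and from -0.89 to 0.036 in the survival arm.

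Retsat encodes retinol saturase, which converts retinol to a dihydroretinol and is a PPAR-gamma target in adipocytes. It measured 267, 273, 260 and 258 in acute KO libraries, against 248 to 315 with a median of 261.7 in acute WT libraries. The acute libraries lay close together except for WT library 1, the highest at 314.8. Survival KO libraries held 264, 260, 314, 343 and 259 and survival WT libraries 316, 362, 255, 278 and 329. The log2 fold changes were -0.01 (95% interval -0.20 to 0.17, limma adjusted p = 0.920) in the acute and -0.09 (-0.35 to 0.16, adjusted p = 0.839) in the survival arm. A gene of the opposite strand, Gm45053, overlaps its exons by 650 bases in GENCODE M21, and the sources used here do not say whether quantification used the strand.

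**Figure D3:**
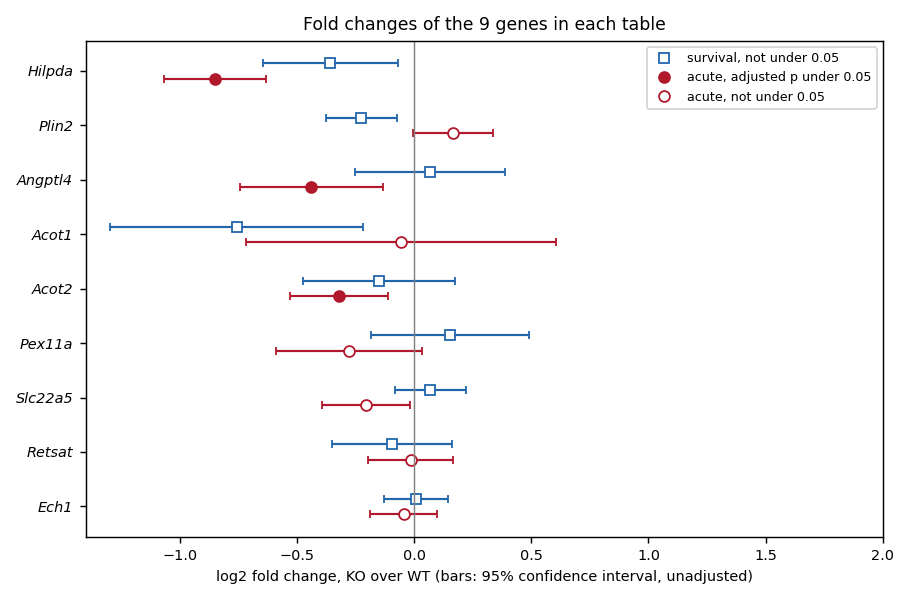
Log2 fold changes of KO over WT (horizontal axis) for the 9 genes, squares for the survival arm above circles for the acute arm, with unadjusted 95% intervals as bars; filled points passed limma's adjusted test. The acute point of Hilpda at -0.85 is the lowest of all, and the 2 Plin2 points lie on opposite sides of zero.

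Whether a fold change differed between the arms was tested as the survival fold change less the acute one, over all 20 libraries. Hilpda and Plin2 passed, where 20.2% of 15673 genes did (9.39% with a higher and 10.9% with a lower survival fold change). A count of 2 in 9 is thus near the share of all genes. The fold change of Hilpda was -0.36 in the survival and -0.85 in the acute arm, a difference of 0.49 ± 0.169 SE (limma adjusted p = 0.0436). That of Plin2 was -0.23 in the survival and 0.17 in the acute arm, a difference of -0.39 ± 0.106 SE (limma adjusted p = 0.0125). Both values of Hilpda were thus negative, the acute one further from zero, while those of Plin2 had opposite signs. The difference of Angptl4 (0.51 ± 0.207 SE, limma adjusted p = 0.0881), of Slc22a5 (0.27 ± 0.105 SE, adjusted p = 0.0706) and of Pex11a (0.43 ± 0.204 SE, adjusted p = 0.142) had an unadjusted p under 0.05 and did not pass. Acot1 (-0.70 ± 0.400 SE), Acot2 (0.17 ± 0.183 SE), Retsat (-0.08 ± 0.145 SE) and Ech1 (0.05 ± 0.0884 SE) had limma adjusted p-values of 0.230 to 0.744. Without acute KO libraries 2 and 3 neither gene passed, with a difference of 0.38 for Hilpda (adjusted p = 0.255) and -0.27 for Plin2 (adjusted p = 0.158). The Hilpda call was also lost, at adjusted p 0.0527 to 0.103, without any single library among acute KO 2 to 4, acute WT 2 to 5, survival KO 2 to 4 and survival WT 1, 2, 4 and 5, and its difference was 0.03 after rescaling to Trbc1 and Trbc2 (adjusted p = 0.875).

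Among 14 tested PPAR receptors and cofactors, 2 rose and 1 fell in acute KO spleens, where 31.4% of all tested genes passed. Rescaled to Trbc1 and Trbc2 the list gave 11 rises and 0 falls, and without KO libraries 2 and 3 it gave 0 calls by limma (2 at an unadjusted p under 0.05). Ppara measured 13.1 ± 3.72 in acute KO and 10.5 ± 3.57 in acute WT libraries, Ppard 647 ± 72.0 against 606 ± 58.9, and Pparg 45.9 ± 7.45 against 32.6 ± 6.27 (SD, n = 4 and 6), with limma adjusted p-values of 0.511, 0.467 and 0.0883. Rxra, the shared partner of PPARs, rose to 200.1 ± 65.9 in acute KO libraries, against 105.5 ± 15.5 in WT libraries (0.87 ± 0.199 SE, limma adjusted p = 0.00636). It did not pass without KO libraries 2 and 3 (adjusted p = 0.112). The corepressor Ncor1 rose by 0.19 and the histone deacetylase Hdac3 fell by 0.14 on the log2 scale (limma adjusted p = 0.0188 and 0.0491). Ncor1 did not pass without KO library 2 (adjusted p = 0.0564) or without KO libraries 2 and 3 (adjusted p = 0.135). Hdac3 passed under 4 of 19 alternatives, was lost without any single library except KO 1, and was 0.24 when rescaled to Trbc1 and Trbc2 (adjusted p = 0.0386).

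Of 25 other PPAR targets tested, 4 rose and 10 fell in the acute arm, with a median log2 fold change of -0.18. Over all tested genes 16.7% rose and 14.7% fell in the acute arm, the shares to set beside this and the following list counts. Acaa2, the thiolase of mitochondrial beta-oxidation, averaged 2244 ± 174 in acute KO and 3256 ± 138 in acute WT libraries (-0.54 ± 0.0553 SE, limma adjusted p = 4.71e-05). Acadvl, the very-long-chain acyl-CoA dehydrogenase, averaged 1362 ± 34.0 in KO and 1941 ± 146 in WT libraries (-0.51 ± 0.0587 SE, adjusted p = 8.87e-05). Cpt1a, which makes the acylcarnitines that enter mitochondria, fell by 0.43 on the log2 scale (limma adjusted p = 0.00735). Acsl1, a long-chain acyl-CoA synthetase, rose to 1309 ± 564 in KO libraries, against 386 ± 48.1 in WT libraries (1.67 ± 0.214 SE, adjusted p = 0.000177), and Aldh3a2, a fatty aldehyde dehydrogenase, rose by 0.53 (adjusted p = 0.00117). Cd36, a fatty acid carrier (0.28, adjusted p = 0.451), did not pass, and Pdk4 was too low to test.

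Among survival libraries 0 of these 25 targets passed limma's adjusted test (4 at an unadjusted p under 0.05). Cpt1a was among them, at 1612, 2470, 3599, 3728 and 1534 in KO libraries against 3849, 4590, 4216, 4174 and 4565 in WT libraries. The groups did not overlap, KO libraries 1 and 5 being lowest (-0.82 ± 0.221 SE, limma adjusted p = 0.267).

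Genes of ketone body synthesis and use gave 2 rises and 3 falls among 9 tested in the acute arm. The ketone body and lactate carrier Slc16a1 fell to 4714 ± 285 in acute KO libraries, against 6436 ± 281 in WT libraries (-0.45 ± 0.05 SE, limma adjusted p = 7.1e-05), and Acat1, a thiolase of both synthesis and use, fell by 0.25 on the log2 scale (adjusted p = 0.00359). Acat1 was 0.13 when rescaled to Trbc1 and Trbc2 (adjusted p = 0.156) and did not pass without KO libraries 2 and 3 (adjusted p = 0.0542). The genes that rose were other members of the monocarboxylate carrier family, Slc16a7 by 2.20 and Slc16a6 by 0.44 (limma adjusted p = 0.00377 and 0.0302), the call of Slc16a6 being lost without KO library 2 or 3 or WT library 3, 4 or 5 and that of Slc16a7 without KO libraries 2 and 3 together (adjusted p = 0.0868). Slc16a7 was low, at 39.8, 96.1, 68.7 and 38.5 in acute KO libraries against 4.86 to 25.3 in WT libraries. It met the filter on low values only through the KO libraries. Alternative settings gave it values from -1.35 to 2.57. Bdh1, the ketone body dehydrogenase, and Oxct1, which starts their use, did not pass (adjusted p = 0.0614 and 0.0821). In the survival arm 0 of 9 passed limma's test (2 at an unadjusted p under 0.05).

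**Figure D4:**
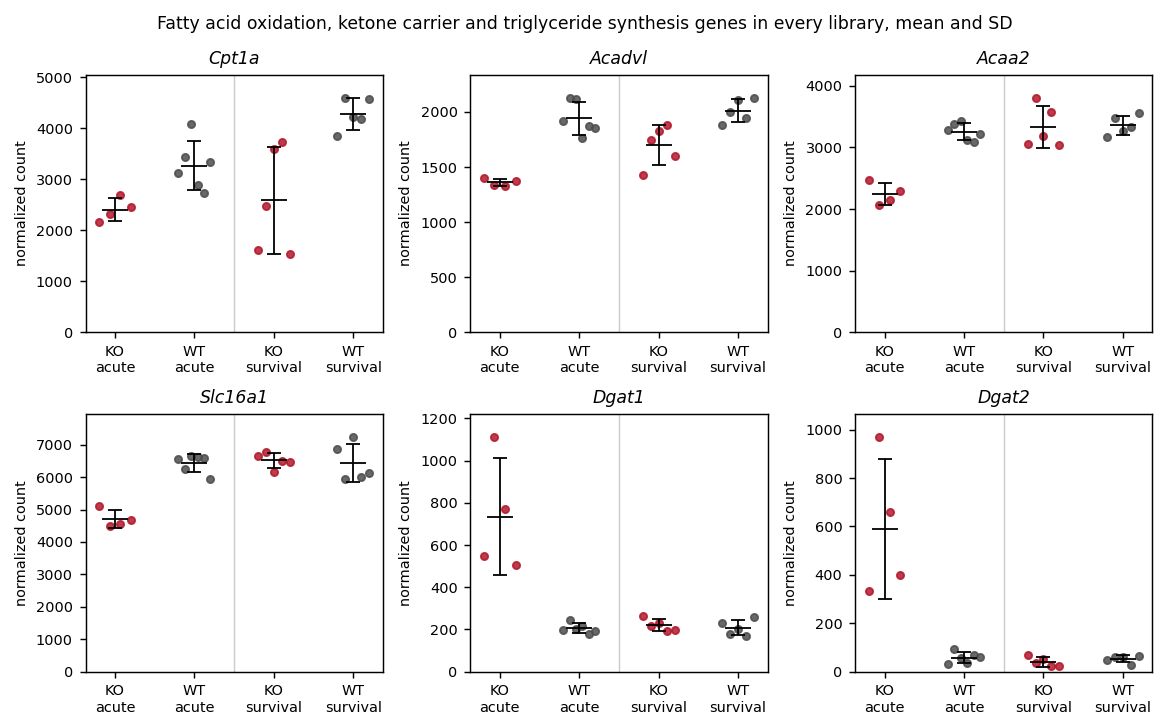
Normalized counts (vertical axes) of 6 related genes in every library, with KO left of WT in each arm; points are libraries, the long bar is the mean and whiskers are the SD. Cpt1a, Acadvl, Acaa2 and Slc16a1 are lower in acute KO than in acute WT libraries, and Dgat1 and Dgat2 are higher.

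Of 18 tested genes for droplet proteins, lipases and triglyceride synthesis, 9 rose and 2 fell in the acute arm, with a median log2 fold change of 0.37. Dgat1 and Dgat2, the enzymes of the last step of triglyceride synthesis, averaged 734 ± 277 and 590 ± 289 in acute KO libraries, against 206 ± 23.2 and 58.0 ± 22.1 in acute WT libraries (1.77 ± 0.189 SE and 3.29 ± 0.336 SE, limma adjusted p = 5.6e-05 and 4.7e-05). Pnpla2, the lipase that HILPDA inhibits, had a log2 fold change of 0.19 in the acute arm (limma adjusted p = 0.504) and -0.44 in the survival arm (adjusted p = 0.462). Plin3, another coat protein, rose by 0.23 on the log2 scale in the acute arm (limma adjusted p = 0.0266), a call lost without KO library 2 or 3. Ldah and Rab18, droplet-bound proteins that fell by 0.27 and 0.19, had the opposite sign when rescaled to Trbc1 and Trbc2 (0.11 and 0.19).

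Around Angptl4, 2 of 4 tested genes of the lipoprotein lipase group rose in the acute arm: Lipg, the endothelial lipase, averaged 1312 ± 699.8 in KO and 163 ± 27.4 in WT libraries (2.84 ± 0.295 SE, limma adjusted p = 4.9e-05), and Lpl 118 ± 36.5 in KO and 67.9 ± 10.9 in WT libraries (0.75 ± 0.211 SE, adjusted p = 0.0179, lost without KO library 2 or 3). Among 9 other thioesterases 1 rose, Acot11 by 2.28 (limma adjusted p = 0.000456), and 3 fell. Acot5 and Acot6, peroxisomal members of the Acot1 family in mouse, fell by 0.89 and 0.62 (limma adjusted p = 0.00172 and 0.000982). Of 18 genes for peroxisome biogenesis and fatty acyl transport, 1 rose and 6 fell. Pex11g, a paralog of Pex11a, fell by 0.81 on the log2 scale (limma adjusted p = 0.00743), while Abcd2, a peroxisomal fatty acyl transporter, rose to 395 ± 171 in KO libraries, against 40.9 ± 10.4 in WT libraries (3.18 ± 0.254 SE, adjusted p = 3.8e-05).

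Beside Slc22a5, the carnitine list had 2 rises among 4 tested, of Crat (0.62, limma adjusted p = 0.00401) and of the paralog Slc22a4 (1.14, adjusted p = 0.00984). Without KO libraries 2 and 3 these values were 0.35 for Crat (limma adjusted p = 0.0439) and 0.61 for Slc22a4, which did not pass (adjusted p = 0.191). Beside Retsat, 5 of 9 retinol metabolism and retinoic acid receptor genes rose and 2 fell, with Dhrs9 at 3.20 and Rarg at 1.33 (limma adjusted p = 7.1e-05 and 0.00416). Without KO libraries 2 and 3 the list gave 1 rise and 0 falls, and Rarg was 0.81 and did not pass (adjusted p = 0.0768). Of 15 HIF targets, 2 rose and 8 fell. Egln3, the oxygen-sensing prolyl hydroxylase that HIF induces, averaged 1091 ± 70.0 in acute KO and 1604 ± 143 in acute WT libraries (-0.55 ± 0.0735 SE, limma adjusted p = 0.000225). Pdk1, a kinase that shuts off pyruvate dehydrogenase, fell by 0.44 (adjusted p = 0.000865), whereas Vegfa, the angiogenic growth factor, rose by 1.49 (adjusted p = 0.0033) and Bnip3, a mitophagy receptor, rose to 51.3 ± 9.94 in KO libraries, against 24.0 ± 7.9 in WT libraries (adjusted p = 0.00603). In the survival arm 0 genes of these lists passed limma's adjusted test, while at an unadjusted p under 0.05 there were 3 HIF targets, 2 droplet genes, 1 peroxisome gene, 1 receptor or cofactor and 0 in the lipase, thioesterase, carnitine and retinol lists.

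The list counts changed when the libraries richest in neutrophil and macrophage markers were left out. That leaves 2 KO libraries, and calls over all genes fell as well, so the smaller group and those cells cannot be told apart. List medians moved little for the HIF targets (-0.21 to -0.20) and the peroxisome list (-0.17 to -0.16). They moved more for the droplet (0.37 to 0.04) and retinol (0.72 to 0.32) lists, and the ketone median went from 0.12 to 0.0003. The HIF and peroxisome medians were not stable to scaling. Rescaled to Trbc1 and Trbc2 they were 0.16 and 0.21, beside 0.35 over all genes. With the myeloid score as a covariate each list gave 0 calls by limma, as did all genes together. In that fit the list median turned to -0.18 for the droplet list and -0.41 for the retinol list. It turned from 0.33 to -0.19 (carnitine), 0.12 to -0.19 (ketone) and 0.72 to -0.07 (lipase). The median stayed negative for the HIF (-0.06), peroxisome (-0.11), thioesterase (-0.14) and other PPAR target (-0.16) lists, and was 0.16 for receptors and cofactors. Score and genotype do not overlap in the acute arm, so their parts cannot be told apart. Without KO libraries 2 and 3, the 2 with the highest myeloid score, the HIF targets gave 1 rise and 4 falls, the other PPAR targets 2 and 8, the ketone list 0 and 1, the droplet list 7 and 0, the peroxisome list 1 and 2, the thioesterases 1 and 2, the lipase list 1 and 0 and the carnitine list 1 and 0. Vegfa then did not pass (1.01, limma adjusted p = 0.0539). Rescaled to Trbc1 and Trbc2, which shifts the median of all genes to 0.35, the HIF targets gave 4 rises and 1 fall, the other PPAR targets 8 and 0, the ketone list 5 and 1, the droplet list 13 and 0, the peroxisome list 5 and 0, the thioesterases 4 and 0, the lipase list 2 and 0, the carnitine list 4 and 0 and the retinol list 6 and 0. On that scale the falls of Acaa2 (-0.16), Acadvl (-0.13), Cpt1a (-0.06), Slc16a1 (-0.07), Egln3 (-0.18), Pdk1 (-0.06), Acot5 (-0.51), Acot6 (-0.24) and Pex11g (-0.43) kept their sign and did not pass (limma adjusted p 0.0551 to 0.743). The acute fall of Acly, the deleted gene, also shrank there, from -0.46 to -0.08.

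**Figure D5:**
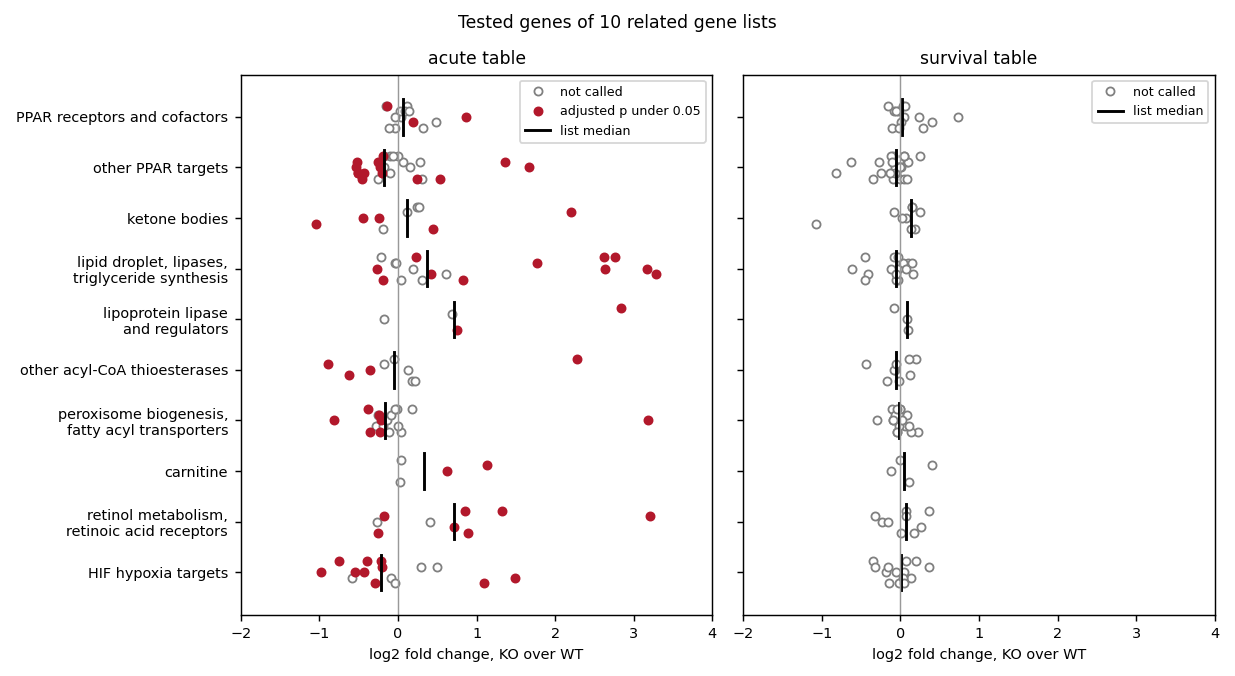
Log2 fold changes of KO over WT (horizontal axes) of every tested gene of 10 related lists in the acute and survival tables; each circle is a gene, filled where limma's adjusted p is under 0.05, and the upright bar is the list median. In the acute table the droplet list has 9 filled points on the right and 2 on the left, and the survival table has none filled.

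The 9 genes did not vary as a block between libraries. After group means were removed, the correlation of log2 values over the 20 libraries was highest between Hilpda and Slc22a5 (Pearson r = 0.56) and between Plin2 and Acot1 (r = 0.52), and lowest between Pex11a and Retsat (r = -0.27). The libraries share spleen makeup and scaling, so these values are descriptions only. Among 15673 genes, the pattern most like that of Hilpda was Zfp772 (r = 0.84) and that most like Plin2 was Syk (r = 0.83), followed by Cib2 (r = 0.82) and the immunoglobulin gene Iglc2 (r = 0.80). For Angptl4 it was Dph5 (r = 0.89), for Acot2 Sp140l2 (r = 0.85) and for Pex11a Gm37040 (r = 0.73). For Slc22a5 it was Frg1 (r = 0.85), for Retsat Me1 (r = 0.82) and for Ech1 Gsr (r = 0.83).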

How the data were processed

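RNA-seq of polyadenylated, strand-specific libraries gave 1 column per library in 2 deposited tables. The authors deposited a signal of normalized counts, quantified with kallisto 0.46.0 on GRCm39 and scaled with DESeq per the submitters' processing notes. The sources used here do not give the annotation, any filter or how transcripts were summed to genes. The values are not whole reads, so count tests were not run, and each table was tested on its own. On log2(normalized count + 1), limma 3.58.1 in R 4.3.3 (lmFit, eBayes with trend) was fitted to genes at 10 or more in at least 4 acute or 5 survival libraries, with two-sided p-values adjusted by Benjamini-Hochberg over all genes tested and a call at an adjusted p under 0.05. The difference between arms was a contrast over 20 libraries. The fits were tested on simulated data with the WT spread in both groups, independent genes and no change of cell makeup, unlike the acute data. Of 1.25-fold changes 58% were recovered in the acute and 34% in the survival setting, and of 2-fold changes 92% and 84%. The changed genes were drawn only from those with higher WT levels. These rates thus do not cover genes as low as Ppara, Pparg, Slc16a7 or, in the survival arm, Acot1. The members and lists were chosen with earlier results of these data known. Named list genes were the 2 called genes of smallest p in each direction, beside a fixed set, and a few of them are not reported here. Alternatives covered pseudocount, filter, scaling, trend, replicate block, a marker covariate and left-out libraries. Replicate numbers are not stated to pair the libraries and were used as pairs only in the replicate block. Sequences were matched to RefSeq promoters by symbol. Python 3.11.15, pandas 2.3.3, numpy 2.4.6 and matplotlib 3.10.9 were used.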

Additional observations from a re-analysis of the deposited data

Results flagged for a closer look

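Retsat stood at 314.8 in acute WT library 1, the highest of its group, while the other WT libraries lay between 248.1 and 265.1. The gap to the next library was 0.746 of the whole range, beyond the 95% limit of Dixon's test. Chance flags about 1 in 20 groups, and 40 groups were checked.

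The fold change of KO over WT differed between the arms for Acly, by -0.92 on the log2 scale (limma adjusted p = 0.000442), with Acly at 39.2% of WT in the survival and 73.3% in the acute arm. It also differed for Hilpda, by 0.49 (limma adjusted p = 0.0436), and for Plin2, by -0.39 (limma adjusted p = 0.0125). Of 15673 genes, 20.2% passed this test, so 2 of the 9 is near the share of all genes. Under 29 alternatives the difference of Hilpda passed in 9 and that of Plin2 in 27. Hilpda was lower in all 4 acute KO libraries than in any WT library, and Plin2 in all 5 survival KO libraries than in any WT library. The myeloid marker score separated KO from WT in the acute arm and overlapped in the survival arm. With that score as a covariate the differences of Hilpda and Plin2 between the arms did not pass. Score and genotype do not overlap in the acute arm, so their parts cannot be told apart.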

How the results depend on the processing

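The counts of the 9 genes and of all genes moved with several choices. Of the 9, the acute count of 3 became 5 under quantile normalization, 1 with the replicate block, 0 with the marker score as covariate (limma, 2 at an unadjusted p under 0.05) and 1 without acute KO libraries 2 and 3, and ran from 2 to 4 with single libraries left out. Over all genes, 5140 acute calls became 3272 with the block, 0 with the covariate (1055 at an unadjusted p under 0.05) and 2079 without KO libraries 2 and 3, and ran from 3671 to 5510 with single libraries left out. The survival count of 0 members became 4 when scaled to all T-cell receptor beta genes, a scale that follows segment use and moved the median of all genes to -0.88. The 2 survival calls over all genes became 6 with a pseudocount of 10, 2484 on that scale, 1 with the covariate and 1 scaled to Trbc1 and Trbc2. They ran from 1 to 23 with single libraries left out, the highest without survival WT library 4. The 2 differences between arms became 1 without a filter, 5 under quantile normalization, 6 scaled to all receptor beta genes, 1 with the replicate block, 0 with the covariate, 4 scaled to Trbc1 and Trbc2 and 0 without acute KO libraries 2 and 3, and ran from 1 to 3 with single libraries left out. The 2 zero counts of the differences had 2 and 1 members at an unadjusted p under 0.05 (limma).

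Signs turned as follows. Scaled to all receptor beta genes, the acute values were 0.25 for Acot1, 0.026 for Pex11a, 0.10 for Slc22a5, 0.29 for Retsat and 0.26 for Ech1. On that scale the survival values were -0.82 for Angptl4, -0.74 for Pex11a, -0.82 for Slc22a5 and -0.89 for Ech1, and the differences -0.70 for Hilpda, -0.69 for Angptl4, -1.02 for Acot2, -0.76 for Pex11a, -0.92 for Slc22a5 and -1.14 for Ech1. Scaled to Trbc1 and Trbc2, they were in the acute arm 0.32 for Acot1, 0.055 for Acot2, 0.10 for Pex11a, 0.17 for Slc22a5, 0.36 for Retsat and 0.33 for Ech1. In the survival arm they were -0.015 for Angptl4, -0.014 for Slc22a5 and -0.076 for Ech1, and the differences -0.29 for Acot2, -0.027 for Pex11a, -0.18 for Slc22a5 and -0.41 for Ech1. With the covariate they were -0.52 for Plin2 and 0.14 for Retsat (acute), and 0.57 for Acot1 and -0.40 for Acot2 (differences). Quantile normalization gave -0.014 for Ech1 (survival) and 0.070 for Retsat (difference). With single libraries left out, acute Acot1 ran from -0.25 to 0.067 and Retsat from -0.036 to 0.033, and survival Angptl4 from -0.025 to 0.14 and Ech1 from -0.020 to 0.036. Of the values that turned, acute Acot2 and the Hilpda difference had been called. Acute Hilpda passed under 18 of 19 alternatives. Same-numbered libraries were treated as unpaired, since the sources used here do not state a shared batch or animal. Their deviations correlated at -0.07 to 0.14, which cannot decide whether they were paired. With the replicate block the acute calls of Angptl4 (limma adjusted p = 0.0523) and Acot2 (0.157) and the Hilpda difference (0.0628) were lost. Where no cause is named, the cause was not tested.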
